A study of Sus scrofa with 6 samples.

Results

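The thymus of RAG2 biallelic knockout pigs was set against the lymph node and the spleen of the same genotype, to describe which features still distinguish the thymus from the peripheral lymphoid organs when RAG2 is disrupted. The comparison used 3 of the 6 RNA sequencing libraries of the series, namely knockout thymus, knockout lymph node and knockout spleen, chosen by their labels. The other 3 libraries, from the same organs of wild-type littermates, entered only as a side-by-side description. Per the labels all animals were 3 months old, no treatment is listed, and the 3 knockout libraries share the RAG2 defect, which the series title describes as the loss of a single amino acid. The labels do not say which residue was removed, how many animals were sampled, or whether the organs came from the same animal.

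Each organ and genotype was represented by 1 library, so no difference below has a replicate check and no p-value is given. Levels are whole fragments per gene, and scaled levels are counts per 1000000 fragments on the listed genes of that library (CPM). A gene was called higher or lower in the thymus when its level differed at least 2-fold (a log2 ratio of at least 1, with 1 CPM added) in the same direction from the lymph node and from the spleen. Intervals in parentheses are 95% Clopper-Pearson intervals of the ratio of counts, and they cover counting error only. Of 2793 genes measured with at least 10 fragments in at least 1 of the 3 libraries, 305 (10.9%) were higher in the knockout thymus than in both peripheral organs, and 421 (15.1%) were lower. Those 2 percentages are the background against which the gene groups below are read. A further 69 genes (2.47%) lay between the organs, below the lymph node and above the spleen, and 11 (0.394%) lay above the lymph node and below the spleen. Against the lymph node alone 392 genes (14.0%) were higher and 721 (25.8%) lower, and against the spleen alone 614 (22.0%) and 646 (23.1%). At the edge of the rule, MLLT11 was just inside at a log2 ratio of 1.0006.

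The thymus is the organ in which blood-borne progenitors become T cells. Epithelial cells of the cortex attract and instruct them, the RAG1 and RAG2 recombinase opens the antigen receptor genes, and a successfully joined beta chain pairs with the pre-T-cell receptor alpha chain and drives expansion to the stage that carries both CD4 and CD8. The medulla, with its own epithelium, dendritic cells and chemokines, depends on maturing thymocytes for its growth. Lymph node and spleen, by contrast, are built around lymphocytes that have already matured, held by reticular stroma, specialised vessels and macrophages. In severe combined immunodeficiency caused by RAG loss, thymocytes are known to stop before the double-positive stage, while natural killer and other innate lymphoid cells still form.

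The 6 libraries held 1922562 to 2541724 fragments on 4122 listed genes, and the 3 knockout libraries 2021583 to 2514982. Several genes, named with their values known, were highest in the same organ in both genotypes. FCN2, a secreted lectin, and CLEC4G, a lectin of sinus endothelium, were highest in the lymph node. CD5L, VCAM1 and WT1 were highest in the spleen, and PTCRA in the thymus. FCN2 and CLEC4G are on the same list of spleen regulators and stromal genes as CD5L, VCAM1 and WT1. These genes are therefore no independent check of the organ labels. The tables of the 3 organs were made separately. In both genotypes, a few genes were listed near 0 in 1 organ's table and high in the others, or above 1 fragment in 1 organ's table only. EPAS1 was of the first kind, with 1 fragment in knockout thymus, 3122 in lymph node and 8244 in spleen. ETS1 was of the second kind, with 3699 fragments in knockout thymus and 0 in lymph node and spleen. STAT2, a signalling protein of nearly all cells, and TYMS, which dividing cells need to make DNA, stood at 0 in all 3 knockout libraries. A value of 0 is therefore reported as listed at 0, and for the 11 genes with such an organ-wide pattern no fold is given. The Y-linked gene EIF1AY had 597, 209 and 194 fragments in knockout thymus, lymph node and spleen but 1, 0 and 0 in the wild-type libraries. Genotype and the sex of the animals can therefore not be told apart wherever the wild type is set beside the knockout; EIF1AY also has a close X-linked copy, so its exact count is uncertain.

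**Figure D1:**
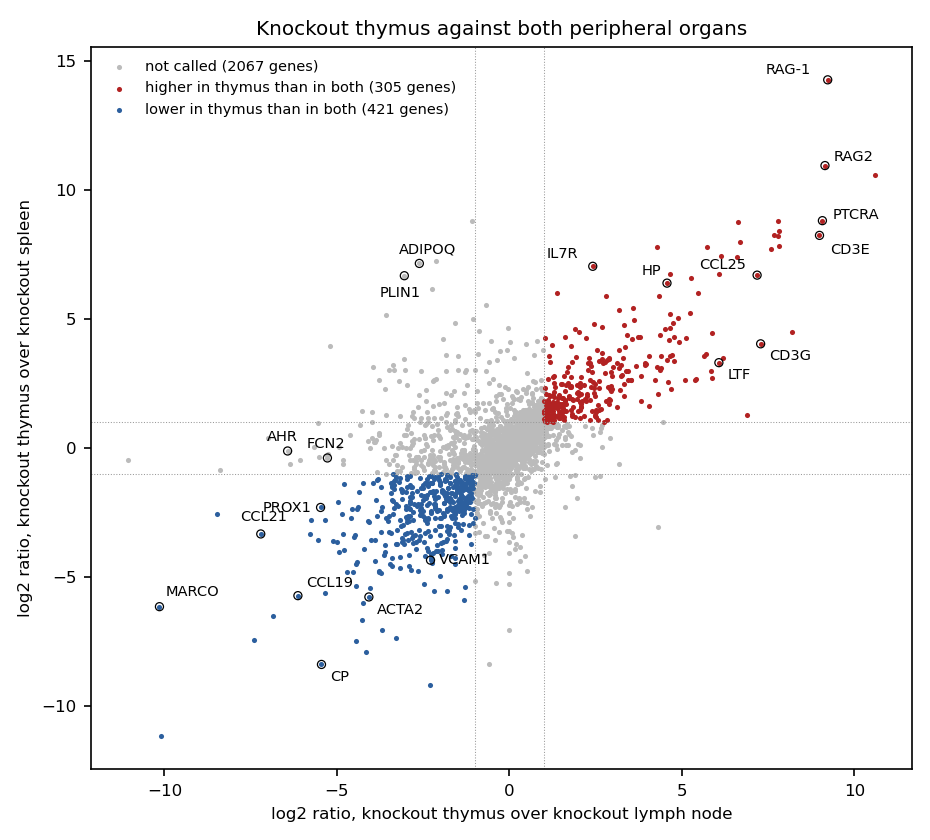
Each point is 1 of the 2793 measured genes in the knockout libraries, placed by its log2 ratio of thymus over lymph node (x axis) and of thymus over spleen (y axis). Red points (305) were at least 2-fold higher in thymus than in both organs and blue points (421) at least 2-fold lower, dotted lines mark log2 ratios of 1 and -1, and circled genes are named.

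The recombinase genes, including the targeted one, were among the genes furthest toward the thymus in the knockout libraries. RAG1, listed as RAG-1, had 66254 fragments in knockout thymus, 91 in lymph node and 1 in spleen, and in the wild type 31145, 11 and 19. Its scaled level in the knockout thymus was 614-fold (interval 499.9 to 762) that of the lymph node, and it took 2.76% of all fragments of that library against 1.23% in the wild-type thymus. RAG2 had 4731, 5 and 0 fragments in the knockout organs and 2609, 0 and 4 in the wild-type ones. Both genes were higher in the thymus than in either peripheral organ in both genotypes. RAG2 was at or near the floor in the periphery, while RAG1, with 91 fragments, was above the floor of 3 counts in the knockout lymph node. A loss of 1 codon leaves the count of a gene as it is, which means that no value here bears on whether the genotypes were labelled correctly. The genes are neighbours on chromosome 2 of Sscrofa11.1, RAG2 at 24547605 to 24553944 and RAG1 at 24565447 to 24573853.

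Of the 6 measured genes of the recombination machinery, 5 were higher in the knockout thymus and none was lower, and the median log2 ratio was 3.57 over lymph node and 2.95 over spleen, where all measured genes had -0.0339 and 0.115. DCLRE1C, which encodes the Artemis nuclease that opens hairpin ends, had 930 fragments in thymus, 83 in lymph node and 206 in spleen. The chromatin proteins HMGB1 and HMGB2, cofactors of RAG cleavage that are also made by dividing cells, were 5.05-fold (4.87 to 5.25) and 15.4-fold (13.7 to 17.4) above the lymph node. XRCC6, the Ku70 end-binding protein used in all cells, was 1.82-fold and 1.84-fold above lymph node and spleen and did not pass. All 5 called genes were called in the wild-type thymus as well.

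Genes of early T-cell commitment and the pre-T-cell receptor were concentrated in the knockout thymus. Among 29 measured members of this list, 16 were higher in thymus and 5 lower, with median log2 ratios of 1.90 and 2.07. PTCRA, the invariant alpha chain of the pre-T-cell receptor, had 1932 fragments in thymus, 1 in lymph node and 2 in spleen. CD3E, a signalling chain of every T-cell receptor, had 3030, 3 and 8, close to the floor in both peripheral organs. BCL11B, the transcription factor that fixes T-lineage commitment, had 1843, 5 and 4 fragments, 311-fold (133 to 958) above the lymph node. LEF1, a partner of beta-catenin in early thymocytes, had 7147, 59 and 15. The same 4 genes were also higher in the wild-type thymus, where the periphery held more of CD3E, BCL11B and LEF1 than in the knockout. CD3E had 897 fragments in wild-type lymph node and 489 in spleen, BCL11B 248 and 49, and LEF1 889 and 173. PTCRA stayed near 0 there, with 1 and 0. The contrast between thymus and periphery for CD3E was therefore 851-fold (291 to 4131) against the lymph node in the knockout and about 4.58-fold in the wild type. In bulk tissue, fewer cells of a type and less RNA per cell cannot be told apart, and this holds for every level given here.

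Other T-lineage genes, named after their values had been seen, followed the same order. CD3G, CD3D and CD247, the other CD3 chains and the zeta chain, had 1852, 774 and 2954 fragments in knockout thymus, and 8, 31 and 316 in lymph node. In spleen they had 116, 191 and 632, above the lymph node in each case, where CD3E had 8. CD3D, CD3E and CD3G lie side by side on chromosome 9 between 45619730 and 45656779. LCK, the kinase that starts receptor signalling, was 15.7-fold (13.2 to 18.7) above lymph node and 9.67-fold (8.55 to 11.0) above spleen. IL7R, the receptor for the survival cytokine of early thymocytes, had 3204, 504 and 23 fragments, and GATA3 had 148, 32 and 4. Of the surface glycoproteins that present lipids on cortical thymocytes, CD1.1 (the pig CD1A gene) had 2698, 49 and 42 and PCD1E (CD1E) 433, 14 and 16. Each of these genes was higher in the thymus than in either peripheral organ.

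The 5 early T-lineage list members that were lower in the knockout thymus are not exclusive to T cells. CD34, which marks blood progenitors and vessels, had 115, 712 and 351 fragments, and SPI1, a regulator of myeloid cells, had 225, 488 and 1832. HHEX had 37, 198 and 216. FYN, a kinase shared by many tissues, was 2.16-fold below lymph node, and its call was lost on the deposited FPKM values. CCR7, the receptor that leads mature thymocytes into the medulla and lymphocytes into lymph nodes, had 10 fragments in knockout thymus, 250 in lymph node and 82 in spleen, and in the wild type 327, 728 and 159. KIT, with 348, 1094 and 609, did not pass against the spleen.

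Markers of the stages beyond the pre-T-cell receptor were divided. Of 8 measured genes on the mature T-cell list, 3 were higher in the knockout thymus (CD8B, ICOS and SH2D1A, listed as LOC780420) and 2 lower (KLF2 and CD69). CD8B had 177, 11 and 28 fragments, 13.6-fold (7.40 to 27.7) above the lymph node, and ICOS, a costimulatory receptor, had 310, 63 and 12. In the wild-type thymus they stood at 4678 and 1511. CD4 had 155 fragments in the knockout thymus, 520 in lymph node and 71 in spleen, so the thymus lay between the organs. CD8A had 71, 35 and 45, only 1.71-fold (1.13 to 2.64) above the lymph node, and CCR9, the receptor for the epithelial chemokine CCL25, had 31, 83 and 5. CD1D, which selects natural killer T cells on cortical thymocytes, had 509, 614 and 430. In the wild-type thymus CD4, CD8A, CCR9 and CD1D stood at 3202, 3256, 1547 and 6822 fragments, each at least 2-fold above both wild-type peripheral organs. KLF2, which promotes exit of mature T cells from the thymus, had 43, 269 and 173 fragments, and CD69, with 7, 27 and 20, lost its call when 5 CPM were added in place of 1. CD28, CTLA4 and FOXP3 were measured in no knockout organ, with at most 2 fragments each.

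Genes of cell division were higher in the knockout thymus than in either peripheral organ. Of 21 measured members of the list, 16 were higher and 1, CCND2, was lower, and the median log2 ratios were 3.33 and 2.42. TOP2A, listed as TOPOII, the topoisomerase that untangles replicated chromosomes, had 14789 fragments in thymus, 237 in lymph node and 1229 in spleen. STMN1, a microtubule regulator of dividing cells, had 8288, 227 and 505. CDC20 and CCNB2, which drive mitosis, were 55.0-fold (36.2 to 88.0) and 27.5-fold (15.6 to 53.8) above the lymph node. EZH2, a chromatin silencing enzyme induced in cycling cells, had 1846, 72 and 163. MKI67 did not pass, with 875, 423 and 570 fragments, and CCND2 had 51, 140 and 367. All 16 were also called in the wild-type thymus, where TOP2A had 17774, 2214 and 1878 fragments.

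**Figure D2:**
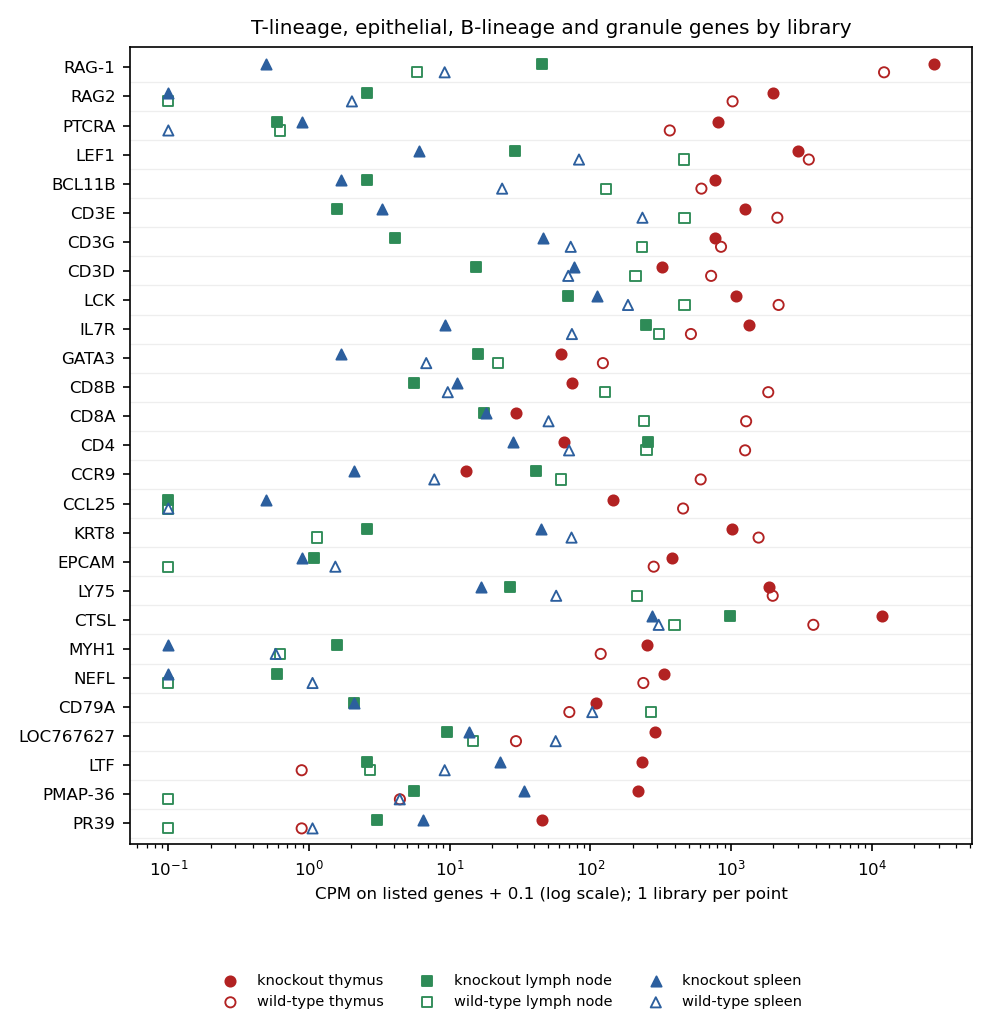
Level of 27 genes in each of the 6 libraries, in CPM on listed genes with 0.1 added (log axis), 1 library per point; filled symbols are knockout and open symbols wild type. Recombinase, T-lineage and epithelial genes sit far right in the knockout thymus, while CD4 and CCR9 fall between knockout lymph node and spleen, and CD4, CD8A, CD8B and CCR9 lie far to the right in the wild-type thymus.

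Of 14 measured genes of the thymic epithelium, 7 were higher in the knockout thymus, none was lower and the other 7 did not pass. The median log2 ratio was 1.37 over lymph node and 3.64 over spleen, and the median over lymph node turned to -0.180 when no minimum of fragments was set. KRT8, a keratin of simple and cortical epithelium, had 2435 fragments in thymus, 5 in lymph node and 111 in spleen. EPCAM, an adhesion molecule of epithelia, had 907, 2 and 2. CCL25, the chemokine that draws progenitors into the thymus, had 346, 0 and 1, and it was also listed near 0 in both wild-type peripheral organs, so no fold is given. LY75 (DEC-205), an endocytic receptor of cortical epithelium and dendritic cells, had 4503, 54 and 42 fragments. All 4 were at or near the floor in the lymph node, the spleen or both, except LY75, which was low but countable in each.

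CTSL, the protease that prepares peptides for CD4 selection in the cortex and is also abundant in macrophages, had 28319, 2002 and 687 fragments and the highest level per transcript length among the called epithelial genes, at 7519 FPKM. FGFR2, a receptor for epithelial growth factors, had 209, 36 and 9. Several list members that did not pass are factors shared with other stroma. DLL4, the Notch ligand of cortical epithelium and vessels, had 241, 585 and 83 fragments, CXCL12 had 569, 1473 and 981, and IL7 had 25, 95 and 15. CLDN4, a claudin, did not pass either, with 48, 99 and 4 fragments, highest in the lymph node. Of the 45 genes named on this list, 17 were in the tables. In the wild type, all 7 called genes were higher in the thymus too, with 3993 fragments of KRT8, 1160 of CCL25 and 9784 of CTSL.

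Some of the largest thymic differences belonged to genes of muscle, nerve and gut that are not part of a lymphoid programme. NEFL, the light neurofilament chain, had 805, 1 and 0 fragments in knockout thymus, lymph node and spleen, and MYH1, a fast skeletal myosin, had 607, 3 and 0. FABP6 and SLC15A1, an intestinal bile acid carrier and a peptide transporter, had 726, 1 and 0 and 572, 3 and 1. All 4 were likewise high in the wild-type thymus, with 605, 301, 3143 and 216 fragments. MYF6, a myogenic factor, had 94, 7 and 0. The skeletal muscle list was divided in the knockout: 3 of its 9 measured members were higher (MYH1, MYF6, MYH7) and 3 lower (DES, RYR1, CAPN3). The knockout calls of MYH7 and RYR1 were lost on the deposited FPKM values. Its summed level was 917 CPM in knockout thymus, 881 in lymph node and 2887 in spleen. DES, also on the smooth muscle list, made up 1894 CPM of the sum in spleen. CKM, MYOD1, MYOG and MB were listed at 0 in all 3 knockout libraries. In the wild-type thymus 8 of 15 measured members of this list were higher and 2 lower, where 10.5% and 20.3% of all measured genes were. Of 4 measured nerve genes NEFL was higher in the knockout thymus, and GFAP and SYN1 were lower at counts whose calls were lost on FPKM. Genes of the tissues beside the thymus were too few to judge an excess. Of 11 thyroid, parathyroid, salivary and lung genes in the tables, 7 were listed at 0 in knockout thymus. Only 3 were measured and none was called, with 10 fragments of thyroglobulin in thymus and 12 in spleen. The part of such tissue in these values was not tested.

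Of 5 measured B-cell genes, 2 were higher in the knockout thymus and 1, CD38, was lower. CD79A, the signalling chain of the B-cell and pre-B-cell receptor, had 265 fragments in knockout thymus, 4 in lymph node and 5 in spleen, 55.9-fold (21.6 to 206) above the lymph node. CD79B, its partner, had 39, 2 and 12. LOC767627, which the reference names VPREB1, the surrogate light chain of pre-B cells, had 686, 19 and 34 fragments; it was chosen after its values were seen. In contrast, MS4A1 (CD20) had 2, 6 and 2 fragments, below the minimum in all 3 organs. In the wild type CD79A had 180, 520 and 215 fragments, CD79B 51, 1891 and 498, and LOC767627 75, 28 and 118.

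Of 16 measured neutrophil genes, 6 were higher in the knockout thymus, 1, NCF1, was lower and the other 9 did not pass. LTF (lactoferrin), a granule protein, had 559 fragments in thymus, 5 in lymph node and 57 in spleen, and the cathelicidin PMAP-36 had 522, 11 and 85. PR39 and PMAP-23, further antimicrobial peptides, had 108, 6 and 16 and 77, 7 and 20; PGLYRP1 and MMP9 were the other 2. NPG1 (protegrin 1), a further antimicrobial peptide, did not pass, with 50, 0 and 25 fragments. Cathelicidin genes share a conserved first part, so fragments may have been split between them. The calprotectin genes did not follow: S100A8 had 550, 148 and 539 fragments and S100A9 698, 165 and 811, close to the spleen. HP, which encodes haptoglobin and is stored in neutrophil granules as well as made by liver, had 3717, 130 and 44. In the wild-type thymus LTF had 2 fragments and PMAP-36 had 11. HBB, the beta chain of haemoglobin, stood at 1966 CPM in knockout thymus, 3277 in lymph node and 8548 in spleen, and at 345 CPM in the wild-type thymus. The part of blood in these values was not tested.

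Of 12 measured genes of the thymic medulla and its dendritic cells, 8 were lower in the knockout thymus and none was higher, and the median log2 ratios were -2.25 and -2.04. CCL19, a ligand of CCR7 made by medullary epithelium and by lymph node reticular cells, had 15 fragments in thymus, 1026 in lymph node and 963 in spleen, 81.1-fold (49.0 to 145) below the lymph node. CCL21, the other CCR7 ligand, had 9, 1419 and 118 in the knockout and 4, 1843 and 259 in the wild type. FSCN1, an actin bundler of mature dendritic cells, had 40, 446 and 792 in the knockout and 244, 352 and 225 in the wild type. CCL17 and CCL22, which medullary dendritic cells and epithelium make, had 1, 22 and 0 and 0, 17 and 0 fragments, while the wild-type thymus had 27 and 40. XCR1, the receptor of the cross-presenting dendritic cell, did not pass, with 172, 149 and 273 fragments, while the wild-type organs had 31, 67 and 104. IRF8, a factor of dendritic cell development, was lower in the thymus of both genotypes, with 107, 219 and 347 fragments in the knockout and 37, 256 and 205 in the wild type. CD86, a costimulatory ligand, had 97, 132 and 441 in the knockout, where it did not pass, and 31, 228 and 372 in the wild type. The wild-type thymus was thus above the knockout thymus in CCL19 (106 fragments), FSCN1, CCL17 and CCL22, and below it in CCL21, XCR1, IRF8 and CD86. IDO1, an interferon-induced enzyme of dendritic cells, was listed at 0 in knockout thymus against 54 and 37, and had 46 fragments in wild-type thymus. CCL19 and CCL21 are also on the lymph node stroma list, so the lists overlap.

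Of 16 measured genes of lymph node stroma and high endothelium, 10 were lower and none was higher (medians -2.17 and -1.89). SELP, a selectin of activated vessels and platelets, had 12, 492 and 101 fragments, and CLU, a secreted chaperone of follicular dendritic cells, had 272, 5227 and 3106. PROX1, the master regulator of lymphatic endothelium, had 11, 500 and 67, and GATA2 had 10, 220 and 64, both lowest in the thymus. In the blood vessel list 5 of 9 measured members were lower, and 1, THBD (thrombomodulin), was higher with 4732, 1052 and 423 fragments. The endothelial genes ENG, NOS3 and VWF were 8.51-fold, 10.6-fold and 10.7-fold below the lymph node. WT1, which marks spleen mesothelium and mesenchyme, had 0, 24 and 330 fragments, and 3 of 6 measured spleen regulators and stromal genes were lower.

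Smooth muscle genes were the list with the largest share of lower members. Of 11 measured smooth muscle genes 10 were lower in the knockout thymus and none was higher, and the medians were -3.62 and -4.27, below those of the other lists against the spleen. DES had 23 fragments in thymus, 467 in lymph node and 4763 in spleen. ACTA2, the alpha actin of contractile cells, had 139, 2005 and 8124, and CNN1, which damps contraction, had 23, 351 and 1137. RGS5, a pericyte gene, was the member that did not pass, with 100, 223 and 137. The spleen, whose capsule and trabeculae contain smooth muscle, was above the lymph node for the first 3 of these genes. All 11 were lower in the wild-type thymus. Fibroblast genes were less uniform: 5 of 15 measured were lower and none higher, with COL1A2 at 3584, 14332 and 9620 fragments, whereas DCN (decorin) had 4591, 4056 and 341 and LUM 174, 1353 and 28.

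**Figure D3:**
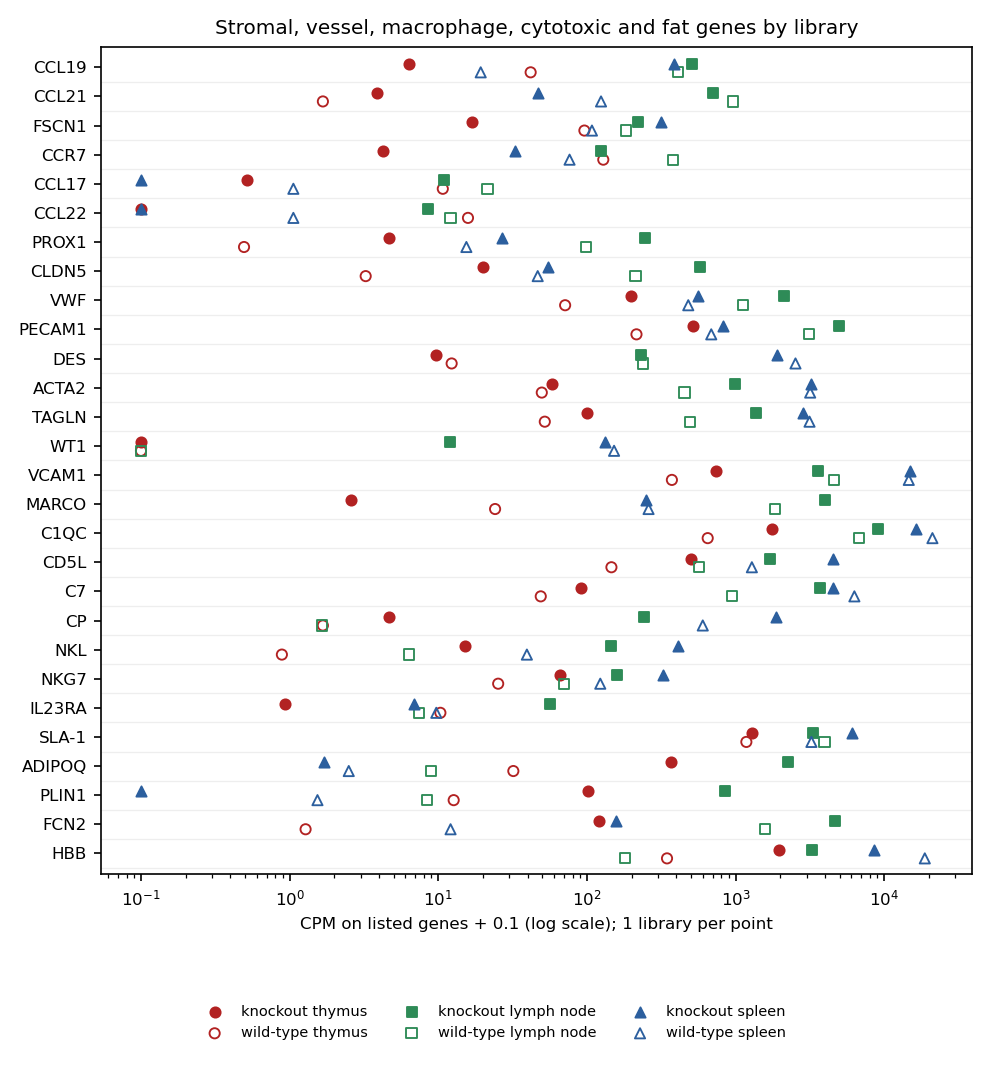
Level of 28 stromal, vessel, macrophage, cytotoxic and fat genes in each of the 6 libraries, in CPM on listed genes with 0.1 added (log axis), 1 library per point; filled symbols are knockout and open symbols wild type. The knockout thymus (filled red circles) lies left of both knockout peripheral organs for genes such as MARCO, CCL19 and ACTA2, and between them for ADIPOQ and PLIN1.

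Of 19 measured genes of red pulp macrophages and iron handling, 8 were lower in the knockout thymus, 1, HP, was higher and the others did not pass. MARCO, a scavenger receptor of marginal zone and sinus macrophages, had 6 fragments in thymus, 8016 in lymph node and 624 in spleen, 1585-fold (728 to 4320) below the lymph node. C1QA, C1QB and C1QC, the subunits of the complement initiator made by tissue macrophages, had 1536, 328 and 4189 fragments in thymus, 9903, 1915 and 18199 in lymph node and 19252, 4427 and 41324 in spleen. All 3 subunits were lowest in the thymus and highest in the spleen. VCAM1, an adhesion molecule of stroma and red pulp macrophages, had 1758, 7237 and 37628 fragments. Other macrophage genes did not follow this order. MRC1, with 523, 7517 and 451 fragments, was not below the spleen, and the scavenger receptors VSIG4 (353, 1065 and 45) and MSR1 (553, 950 and 209) were 8.23-fold and 2.78-fold above the spleen but below the lymph node. LYZ (lysozyme) had 2231, 351 and 1655 fragments, 5.36-fold above the lymph node. In the complement and acute phase list 12 of 19 measured members were lower, led by CP (ceruloplasmin; 11, 491 and 4718) and C7 (217, 7456 and 11383).

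Cytotoxic and innate lymphoid genes, which do not need recombination, were also lower in the knockout thymus than in the periphery. Of 10 measured natural killer and cytotoxic genes, 9 were lower and none higher (medians -1.68 and -2.08), and 8 of these had counting intervals clear of an equal level, as did 393 of all lower genes (14.1% of those measured) and 303 of the higher ones (10.8%). NKL (granulysin), a pore-forming protein of cytotoxic granules, had 36, 292 and 1024 fragments, and KLRK1 (NKG2D), an activating receptor, had 37, 102 and 173. XCL1 and FASLG followed, with 11, 35 and 57 and 3, 13 and 20, the FASLG call being lost when 5 CPM were added in place of 1. Each gene was lowest in the thymus. Of 7 measured innate lymphoid genes, 4 were lower and 1 (GATA3) was higher; IL23R, listed as IL23RA, had 2, 114 and 17 fragments and CXCR6 60, 307 and 328. LTB, a lymphotoxin needed to form lymphoid organs, had 48, 255 and 116 in the knockout and 651, 2098 and 727 in the wild type.

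Of 13 measured genes of MHC class II and presentation, 1 (CTSL) was higher in the knockout thymus and 2 (CD40 and CD80) were lower, and the class II chain SLA-DRA had 7173 fragments in thymus, 9473 in lymph node and 15923 in spleen. Class I gave 4 lower of 13 measured, including SLA-1 (3110, 6712 and 15138) and SLA-2; the SLA genes resemble each other closely, so their separate counts are uncertain. B2M was nearly unlisted, with 4, 14 and 30 fragments. Of 26 interferon-response genes, 12 were lower and 1 (OASL) was higher. CXCL9, a chemokine induced by interferon gamma, had 31, 133 and 675 fragments, and ZBP1, a nucleic acid sensor, had 52, 137 and 587.

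Adipocyte genes placed the thymus between the peripheral organs rather than apart from both. Of 21 measured genes, 10 were at least 2-fold below the lymph node and at least 2-fold above the spleen, where 2.47% of all measured genes had that order, while 2 were higher than both and 2 lower. ADIPOQ (adiponectin), a hormone of mature fat cells, had 882 fragments in thymus, 4550 in lymph node and 4 in spleen. PLIN1, which coats lipid droplets, had 243, 1706 and 0, and LIPE, a lipase of fat breakdown, 610, 3049 and 78. SCD, a desaturase of fat synthesis, was higher in the thymus than in both with 3417, 447 and 323 fragments. In the wild-type libraries ADIPOQ had 81, 17 and 5 fragments, so that order of the organs was not seen there. How much fat tissue each piece contained was not tested.

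**Figure D4:**
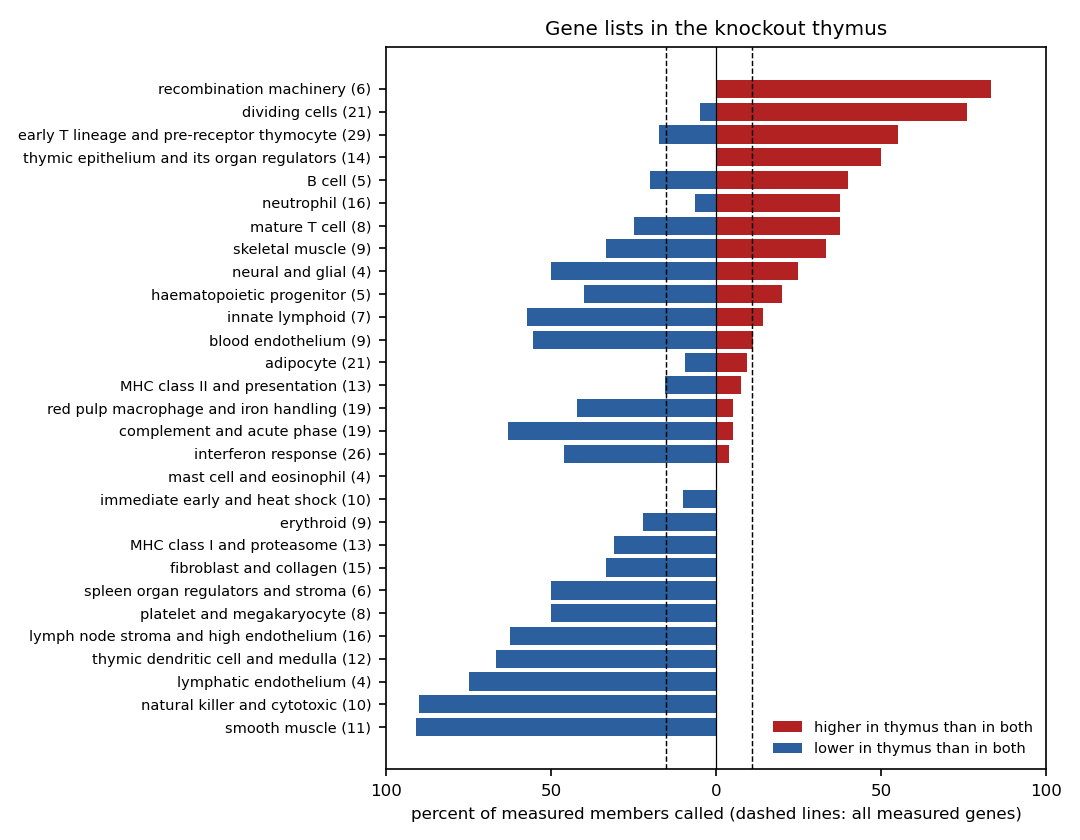
Percent of the measured members of each gene list (number measured in brackets) that were called higher (red, right) or lower (blue, left) in the knockout thymus than in both peripheral organs. Dashed lines give the same percentages over all measured genes, 10.9% higher and 15.1% lower; recombination, division and early T-lineage lists reach furthest right, and smooth muscle and cytotoxic lists furthest left.

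The wild-type organs, compared in the same way, had 292 genes higher in the thymus of 2771 measured (10.5%) and 562 lower (20.3%). A total of 177 genes were higher in both genotypes, 58.0% of the knockout list and 60.6% of the wild-type list, and 298 were lower in both, 70.8% and 53.0%. Of the genes higher in the knockout thymus, 111 did not pass in the wild type and 15 were under the minimum there. The thymic dendritic and medullary list had 8 lower members of 12 measured in the knockout and 6 of 12 in the wild type, 4 of them shared. The neutrophil list had 6 higher members of 16 measured in the knockout and 3 of 11 in the wild type, where 4 were lower. None of its higher members was shared, but members not measured in the wild type could not be. Whether the genotypes differ in these counts was not tested.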

How the data were processed

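RNA from lymph node, spleen and thymus of knockout and wild-type pigs was extracted on columns (RNeasy) and made into stranded total RNA libraries (TruSeq), per the labels' protocols. The submitters' processing notes name FastQC 0.11.9, Trimmomatic 0.39, STAR 2.7.9a, Cufflinks 2.2.1 and the build Sscrofa11.1. The sources used here name no annotation, strand setting or treatment of shared fragments, so overlapping, antisense and near-identical genes are uncertain.

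The estimated counts deposited by the authors are fragments per gene. As read from the values, every column had been scaled by a factor of its own. Dividing by the most frequent value above 0 made 97.0 to 99.2% of them whole within 0.02, and the quotients were rounded. The authors also deposited FPKM values, used as an alternative and for levels between genes. The tables list 4122 genes, so totals are not library depth. A floor of 3 counts equals 1.19 to 1.48 CPM in the knockout libraries.

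Grouping followed the labels. No test could be made with 1 library per group, and calls rest on size (a log2 ratio of at least 1 against both organs, 1 CPM added, at least 10 fragments in 1 library). Tools were Python 3.11.15 with pandas 2.3.3, numpy 2.4.6, matplotlib 3.10.9 and scipy 1.17.1, and for alternative scalings R 4.3.3 with edgeR 4.0.16 and DESeq2 1.42.0. The procedure was tested on simulated counts for 4122 genes in the knockout comparison. It called 100% of 50 genes made 4-fold higher, 98.0% of 50 made 4-fold lower, 14.0% made 2-fold higher, 46.0% made 2-fold lower and 0.118% of unchanged genes. The simulated counts held counting error only, with no variation between animals or tissue pieces. Changes were placed only in genes expected to reach at least 10 fragments. These percentages are therefore not error rates of the calls in the real libraries.

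Named genes are RAG1 and RAG2, up to 5 called members of each list with the largest smaller ratio, members that did not pass, and the 20 highest and 20 lowest genes with at least 50 fragments. Members and lists were chosen with earlier results of these data known. Of the symbols, 3721 matched the reference annotation directly, 225 through an older name, 92 by gene ID, and 84 did not match. Some genes that count in the lists are not reported here by name. No sequence is shown, since none was used here.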

Additional observations from a re-analysis of the deposited data

Results flagged for a closer look

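In 6 genes the knockout thymus stood on the opposite side of both peripheral organs from the wild-type thymus. The difference between the genotypes was not tested, and it rests on 1 library per organ and genotype. The value given first is the smaller of the log2 ratios of knockout thymus over lymph node and over spleen. LTF, the iron-binding protein of neutrophil granules, was higher in the knockout thymus (3.31), with 559, 5 and 57 fragments in thymus, lymph node and spleen, and lower in the wild-type thymus, with 2, 5 and 19. The wild-type counts are so low that the interval of the ratio to the lymph node includes an equal level. CD79B, a B-cell receptor chain, was higher in the knockout (1.58; 39, 2 and 12 fragments) and lower in the wild type (51, 1891 and 498), where thymus levels of both genotypes were alike and the periphery differed.

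The other 4 genes were lower in the knockout thymus and higher in the wild-type one. ABCB1, an efflux transporter, had -1.34, with 59, 472 and 160 fragments against 2424, 357 and 138. IL-18RA, which the tables list under that name, had -1.61, with 4, 45 and 18 fragments against 166, 27 and 16. IL12RB1, a chain shared by the receptors of interleukins 12 and 23, had -1.91, with 14, 50 and 96 fragments against 296, 91 and 38. ARNTL, a clock gene, had -1.31, with 14, 34 and 40 fragments against 42, 12 and 16. For ABCB1, IL-18RA and IL12RB1 the thymus values moved most between the genotypes, and the peripheral values less. For ARNTL the periphery moved nearly as far in the other direction. From knockout to wild type its thymus went from 5.84 to 16.5 CPM and its lymph node from 16.8 to 6.24.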

How the results depend on the processing

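The number of genes called depended on the size demanded. With a log2 threshold of 2, the knockout thymus had 136 higher and 167 lower genes, the wild-type thymus 125 and 267, and 76 and 103 were shared by both genotypes. Against the lymph node alone 721 genes were lower; against the spleen alone 614 were higher and 646 lower. Pseudocounts, fragment minimums and other scalings gave 265 to 329 higher and 351 to 458 lower. On the deposited FPKM values 380 were higher and 359 lower, so 51.4% of calls were higher against 42.0% of 305 and 421. Under TMM scaling 40.8% of calls were higher, and under DESeq2 scaling 40.6%. Centring on the median gave 297 and 440. Leaving out genes listed near 0, or above 1 fragment, in 1 organ's table only gave 300 and 418. That alternative was chosen after seeing the data.

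Of 2022 values for single genes, 1912 kept call and direction, 108 lost the call and 2 reversed, both on FPKM: ACACA (-0.90) and POGK (0.80). FPKM per fragment differed at least 2-fold between organ tables for 39 genes, 9 of them called, ACACA included. List medians reversed in 3 of 682: thymic epithelium over lymph node (-0.180, no fragment minimum), pancreas and liver over spleen (0.251, no minimum) and B cell over lymph node (-0.174, minimum of 50). The cause was not tested in these 3. Leaving out a replicate could not be done with 1 library per group. No paired analysis was possible because each group holds 1 library and the groups share only the number 1. Counting error limits genes near 10 fragments: of 305 and 421 calls, 303 and 393 had intervals clear of an equal level.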

Other observations

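Several genes outside the lists, picked after their values were seen, add to the description of the knockout thymus. CXCR4, the receptor that holds progenitors and thymocytes near CXCL12, had 4599 fragments in knockout thymus, 325 in lymph node and 256 in spleen, and RHOH, a small GTPase needed for pre-T-cell receptor signalling, had 2623, 202 and 343. SIX4, a homeobox gene, had 361, 10 and 1. Enzymes of amino acid supply were also higher, PHGDH (serine synthesis) with 1581, 23 and 5 fragments and ASNS (asparagine synthesis) with 1313, 120 and 158. All 5 were higher in the wild-type thymus as well. MPZL2, an epithelial adhesion molecule also called EVA1, had 578, 5 and 1 and lies next to the CD3 genes on chromosome 9, at 45566365 to 45578168.

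IL12RB2, the inducible chain of the interleukin 12 receptor, had 414, 12 and 34 fragments in the knockout organs and 218, 45 and 126 in the wild-type ones, and passed in the knockout alone; the difference between genotypes was not tested. Among the lower genes, IL33, an alarmin of reticular stroma, had 27, 1340 and 210 fragments, CCL2, a monocyte chemokine, 6, 224 and 108, and NR2F2, a vein and stroma regulator, 79, 1011 and 1787. These 3 were lower in the wild-type thymus too. PLA2G2D, a phospholipase of lymphoid macrophages and dendritic cells, had 9, 91 and 1961 fragments in the knockout and 55, 206 and 85 in the wild type.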
